A study of Homo sapiens with 12 samples.

Results

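The comparison of the Tau-knock-out (Tau-KO) line 231K with Tau-expressing (WT) cells covered 4 lists of H3K27me3 peaks, 2 per genotype, and 13131 marks that separated the genotypes in both replicates, out of 224853 marks on the 22 autosomes. SH-SY5Y is an established human neuroblastoma line with a sympathoadrenal origin. In the Tau-KO lines MAPT, the gene of Tau, is disrupted, and the labels give no treatment for either group. 231K is 1 line, so that an effect of the knock-out and a property of that line cannot be told apart. A mark was the union of peaks that overlapped by at least 1 bp. A lost mark held a peak in both WT lists and in neither 231K list (7512 marks), and a gained mark held a peak in both 231K lists and in neither WT list (5619 marks). Membership followed from presence alone, so the difference in presence carries no test. The whole series held 12 samples, 6 of them H3K27me3 chromatin immunoprecipitations (ChIP), and 1338572 peaks.

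H3K27me3, the trimethylation of lysine 27 of histone H3, is placed by the methyltransferase EZH2 within the Polycomb Repressive Complex 2 (PRC2) and is removed by the demethylases KDM6A and KDM6B. It lies over the start sites of developmental regulators that a cell keeps silent, and also in wide low blankets over silent intergenic chromatin. The question of the comparison was whether cells without Tau carry fewer of these marks.

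The marks at transcription start sites (TSS) that ranked highest by the lower of their 2 confidence percentiles give an impression of the underlying sequence. Shown for 4 of them are 250 bases of the hg38 forward strand around the summit of the strongest peak, with each CG dinucleotide in capitals, because unmethylated CG-rich DNA is a known recruiting context of PRC2. The lost marks belong to OR2A42 (chr7:144239635-144239884), LRAT (chr4:154743591-154743840) and GPRC5C (chr17:74432863-74433112), and the gained mark to TTC9 (chr14:70640875-70641124).
OR2A42: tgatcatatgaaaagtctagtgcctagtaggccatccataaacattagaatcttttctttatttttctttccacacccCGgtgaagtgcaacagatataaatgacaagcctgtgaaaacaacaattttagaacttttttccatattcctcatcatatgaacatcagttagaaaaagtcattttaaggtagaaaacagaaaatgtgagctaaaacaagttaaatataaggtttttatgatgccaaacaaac
LRAT: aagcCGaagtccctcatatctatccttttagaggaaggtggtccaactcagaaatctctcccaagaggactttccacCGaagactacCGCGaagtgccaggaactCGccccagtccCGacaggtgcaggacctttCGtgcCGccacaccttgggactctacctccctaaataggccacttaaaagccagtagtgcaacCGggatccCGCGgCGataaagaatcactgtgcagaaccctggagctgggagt
GPRC5C: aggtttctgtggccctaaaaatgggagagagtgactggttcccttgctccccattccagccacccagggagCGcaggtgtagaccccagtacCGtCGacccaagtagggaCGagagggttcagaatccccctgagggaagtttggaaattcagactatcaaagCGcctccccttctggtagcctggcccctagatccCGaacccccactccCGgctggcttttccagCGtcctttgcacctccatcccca
TTC9: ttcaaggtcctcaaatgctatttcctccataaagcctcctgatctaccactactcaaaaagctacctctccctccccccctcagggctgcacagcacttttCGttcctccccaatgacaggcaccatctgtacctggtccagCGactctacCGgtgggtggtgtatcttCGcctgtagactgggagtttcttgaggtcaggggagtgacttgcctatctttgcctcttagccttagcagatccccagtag
The OR2A42 window held 1 CG and 31.6% G or C, whereas the LRAT window held 12 CG. The GPRC5C window held 8 and the TTC9 window 4. The window of the gained mark of EPHA5 lies in an annotated 5′ untranslated region and held 6 CG. Such CG-rich windows were rare in either class. Among summit windows of this length, 1.64% of lost and 0.320% of gained marks held 10 or more CG, beside 1.06% of the marks in all 4 lists, and 22.5%, 25.4% and 15.5% respectively held none. The median G or C content was 40.0% for lost, 38.8% for gained and 42.4% for marks in all 4 lists.

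The 4 lists were of similar size within a replicate number and differed between the numbers. The WT lists held 246970 and 188900 autosomal peaks and the 231K lists 237185 and 180174, a mean of 217935 ± 41061.7 against 208680 ± 40312.9 (SD, n = 2 each). The ratio of 231K to WT was 0.958, and the exact permutation test (two-sided, 6 arrangements, smallest possible p of 0.333) gave p = 0.667. The covered length was 194 and 256 Mb in WT and 180 and 264 Mb in 231K, so the lists of 1 replicate number resembled each other more than the lists of 1 genotype. The same held for the median peak width (458 and 718 bp in WT, 457 and 724 bp in 231K) and for the fragment length implied by the narrowest peak (179 and 244 bp in WT, 179 and 240 bp in 231K). Read totals are not part of the lists. Relative depth, taken from the lowest local background per base of fragment, was 100.0% and 66.6% for WT and 94.8% and 68.7% for 231K. Nothing in the labels says whether the replicates were separate cultures, and the study calls them biological duplicates. The permutation p-value is set against the spread between these samples only.

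Of the 77567 marks in both WT lists, 9.68% were lost in 231K, 18.4% kept a peak in 1 of the 231K lists and 71.9% kept one in both. Of the 73674 marks in both 231K lists, 7.63% were gained. There were 1.34 lost marks for each gained mark. These numbers were of the order of the marks that set the replicate numbers apart, since 5239 marks were held only by the replicate 1 lists of both genotypes and 9396 only by the replicate 2 lists. The share of marks common to a pair of lists was 45.0% for the WT pair and 45.6% for the 231K pair, and between genotypes it ran from 43.3% to 48.5%. The shares between genotypes thus lay on both sides of those within a genotype.

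**Figure D1:**
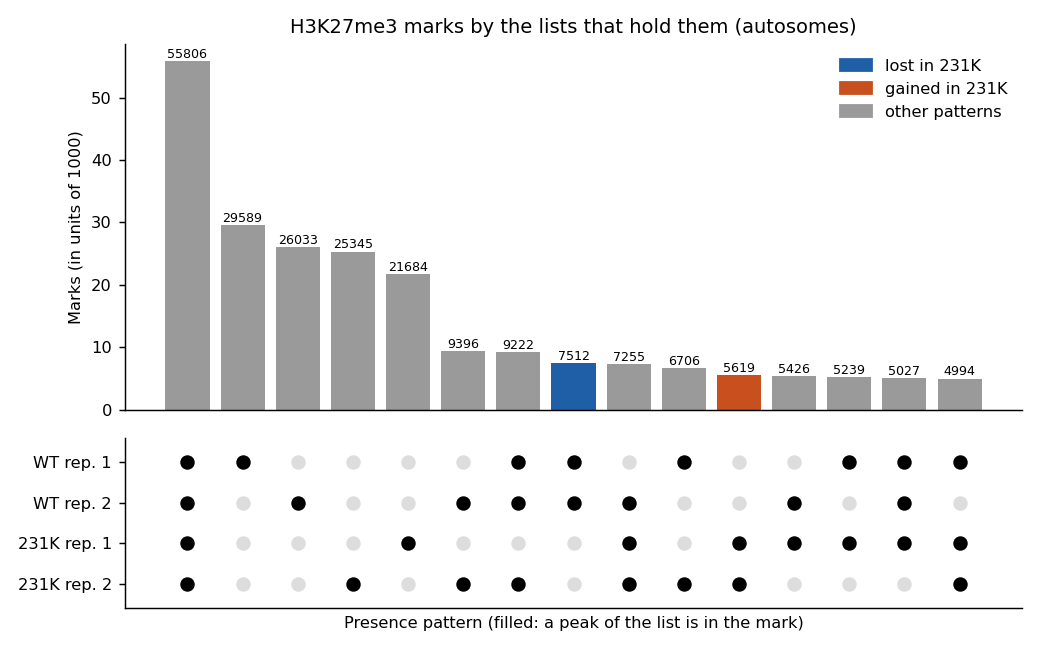
Number of autosomal marks (axis in units of 1000) for each of the 15 presence patterns over the 4 lists, with filled dots for the lists that hold a peak. The 7512 lost marks (blue) and the 5619 gained marks (orange) stand among patterns of similar size, below the 55806 marks in all 4 lists and the marks of a single list.

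Lost and gained marks were narrow and weak. The median width was 645.5 bp for lost and 619 bp for gained marks, beside 3009 bp for marks in all 4 lists. Together the lost marks covered 5.41 Mb and the gained marks 3.92 Mb, against 278.2 Mb for the marks in all 4 lists. Fold enrichment is the fragment pileup at the summit over the local background of the same list, with the same constant (a pseudocount) added to each. Its median for lost marks was 3.18 and 3.36 in the WT lists. For gained marks it was 3.27 and 3.33 in the 231K lists. Marks in all 4 lists had medians of 4.30 and 4.62 in WT and 4.33 and 4.75 in 231K. The median −log10 q of lost marks was 1.99 and 2.41, and that of gained marks 2.12 and 2.46. A −log10 q of 5 or more in both lists that held the mark was reached by 24 lost marks (0.319%) and by 5 gained marks (0.0890%), in comparison with 26.2% of the marks in all 4 lists. The 14249 marks of both WT lists that kept a peak in a single 231K list were just outside the rule. Their median fold enrichment was 3.18 and 3.37 in WT, their median −log10 q 2.11 and 2.72 and their median width 1058 bp, and 0.905% reached a −log10 q of 5 or more in both WT lists. A list without a peak had no summit that passed the threshold of the caller there, so absence is not a level of 0. In these bulk samples a mark carried by fewer cells and a lower mark in all cells cannot be told apart. In the lists the lowest −log10 p ran from 1.93 to 2.10.

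**Figure D2:**
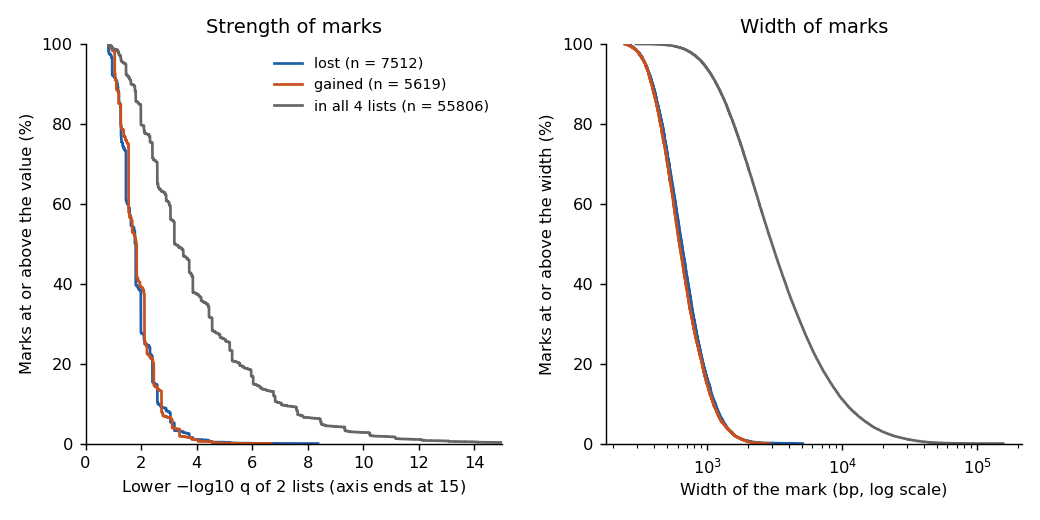
Left, the share of marks (%) at or above a given −log10 q, taken as the lower value of the 2 WT lists (lost marks and marks in all 4 lists) or of the 2 231K lists (gained marks). Right, the share at or above a given width (bp, log scale). The curves of lost and gained marks lie over each other and far to the left of the curve of marks in all 4 lists.

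The direction of the balance depended on the strength asked of a peak. When only peaks with a −log10 q of at least 5 were kept, 884 marks were lost (5.82%) and 1373 were gained (8.49%), so gained marks outnumbered lost ones. The lists held 33714 and 42211 such peaks in WT and 35117 and 46713 in 231K. Only 24 of the 7512 lost and 5 of the 5619 gained marks were still called under this threshold. With the same number of strongest peaks from each list, 180174, the shares were 8.19% lost and 7.70% gained, or 1.08 lost marks per gained mark. Lost marks stayed more numerous than gained marks with q-values under 0.05, with lists scaled to the shallowest, with all chromosomes, with peaks joined across 1 kb and when 50% of a mark had to be covered.

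**Figure D3:**
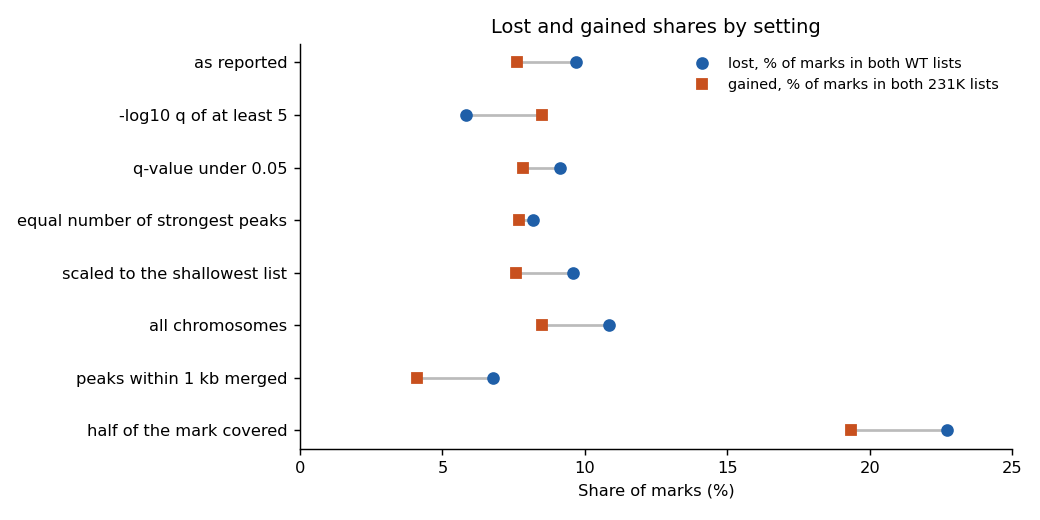
Share of marks (%) lost (blue circles, of marks in both WT lists) and gained (orange squares, of marks in both 231K lists) as reported and under 7 alternative settings. The lost share is the higher in every setting shown except at a −log10 q of at least 5, where it is 5.82% against 8.49%.

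Lost and gained marks lay mainly outside protein-coding genes. Intergenic here means outside protein-coding genes and start-site windows, so bodies of long non-coding RNA genes count as intergenic. Genes of long non-coding RNAs held 22.9% of lost and 23.6% of gained marks, and 24.3% of marks in all 4 lists. Intergenic positions held 72.1% of lost and 71.1% of gained marks, and 60.8% of marks in all 4 lists. Introns of protein-coding genes held 22.3% of lost and 23.8% of gained marks, and exons 1.90% and 1.87%. The window of 1 kb on each side of a protein-coding start site held 2.18% of lost marks, 1.89% of gained marks and 9.03% of marks in all 4 lists. The median distance to such a start site was 141 kb for lost and 117 kb for gained marks, compared with 73.5 kb for marks in all 4 lists. Any overlap counted, and marks in all 4 lists were wider (median 3009 bp, against 645.5 bp for lost and 619 bp for gained marks). Wider marks meet more windows and genes, and these shares and distances were not corrected for width. Most lay close to chromatin that both genotypes marked, because 63.5% of lost and 69.7% of gained marks were within 5 kb of a mark in all 4 lists.

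The lost share per chromosome ran from 6.83% on chromosome 17 to 11.9% on chromosome 11, and the gained share from 4.90% on chromosome 19 to 10.6% on chromosome 10. Chromosome 22 had 2.13 lost marks per gained mark, the highest ratio, and chromosome 10 had 1.06, the lowest. The median local background of a chromosome, relative to that of its list, was 0.968 to 1.03 times as high in 231K as in WT within a replicate number. Lost marks outnumbered gained marks on each of the 22 autosomes under the settings as reported.

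**Figure D4:**
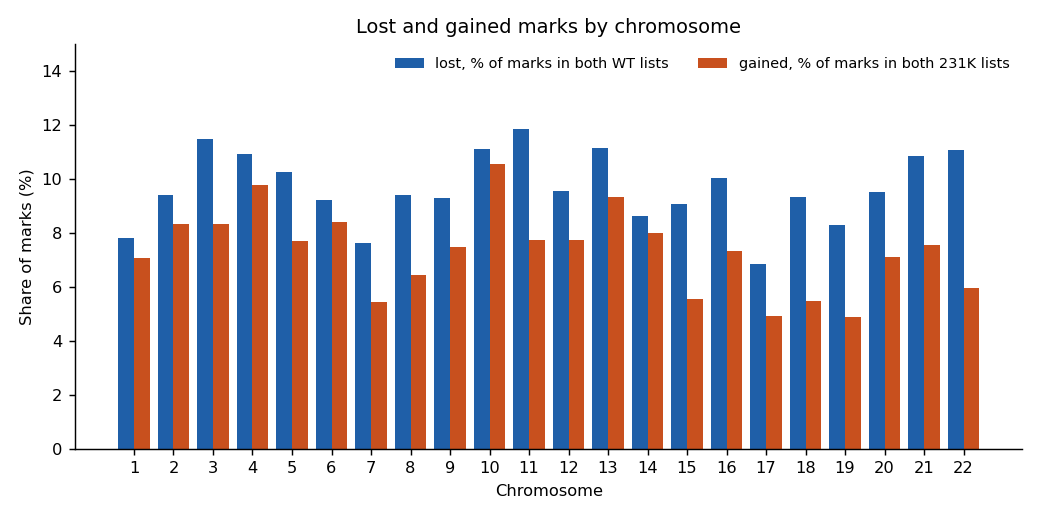
Share of marks (%) lost in 231K (blue, of marks in both WT lists) and gained in 231K (orange, of marks in both 231K lists) on each autosome. The blue bar is the taller on each chromosome, with the smallest distance on chromosome 10 (11.1% against 10.6%).

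Lost and gained marks were unevenly spread. Among 2126 windows of 1 Mb with a mark, 274 held 10 or more lost marks, 182 held 10 or more gained marks and 921 held both kinds. The window with the most lost marks lay on chromosome 16 between 35 and 36 Mb, where 37 of 75 marks of both WT lists were lost (beside 9.68% of all marks) and 2 of 21 marks of both 231K lists were gained (beside 7.63%), without a protein-coding gene. It held 222 and 152 peaks in the WT lists and 94 and 55 in the 231K lists. The windows were picked by their numbers of lost or gained marks, so these peak numbers are a description. Whether reads in the windows have a single place in the genome was not tested. The median local background of its peaks, relative to that of the whole list, was 0.971 and 1.00 in WT and 1.14 and 1.00 in 231K. On chromosome 16 between 26 and 27 Mb, the window of HS3ST4, 34 of 141 marks were lost and 7 of 89 gained, with 424 and 263 peaks in WT and 278 and 163 in 231K. HS3ST4 encodes a heparan sulfate sulfotransferase. On chromosome 4 between 11 and 12 Mb, the window of its paralog HS3ST1, 33 of 111 marks were lost and 9 of 66 gained, with 321 and 243 peaks in WT and 198 and 153 in 231K. The window with the most gained marks, on chromosome 1 between 194 and 195 Mb, held 25 gained marks of 56 and 6 lost marks of 40, and no protein-coding gene. Its peak number was 90 and 161 in WT and 171 and 179 in 231K. The windows of chromosome 13 between 82 and 83 Mb (23 of 129 gained, 23 of 119 lost) and of chromosome 6 between 77 and 78 Mb (23 of 108 gained, 13 of 105 lost) changed in both directions. The latter holds HTR1B, the gene of a serotonin receptor, and MEI4.

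At protein-coding start sites 164 marks were lost and 106 gained, which were 2.87% and 1.93% of the marks at such sites in both WT or both 231K lists. They fell on 160 genes (5.51% of the 2904 genes with a mark of both WT lists at the start site) and on 102 genes (3.62% of 2814). At a −log10 q of at least 5 these counts turned to 72 genes with a lost and 87 with a gained mark. Leaving out 231K replicate 1 gave 291 and 474, whereas lost genes stayed more numerous when any other list was left out. Under the settings as reported, a mark was lost and another gained for 8 genes. The lists held a peak at the start site of 3099 and 3148 genes in WT and of 2857 and 3139 genes in 231K.

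A lost mark did not always clear the start site, since other peaks could remain in the window. A stricter count, added after the values were seen, asked for no peak of 231K anywhere in the 1 kb on each side. By that count 60 of the 2822 genes with a peak of both WT lists (2.13%) had none in 231K, and 25 of the 2695 genes with a peak of both 231K lists (0.928%) had none in WT. Of the 160 genes with a lost mark 35 were cleared in this sense, and of the 102 with a gained mark 18 had no WT peak.

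The highest-ranking lost TSS mark covered the start site of OR2A42, an olfactory receptor gene (chr7:144239562-144239943, 382 bp, first exon and upstream). Its summit held 14 fragments over a background of 1.52 in WT replicate 1 and 14 over 1.38 in replicate 2. With 1 added to both terms, the fold enrichment was 5.96 and 6.30. No 231K list held a peak there. OR2A42 lies in duplicated sequence with near-identical copies, so the placement of its reads is uncertain. The same caution holds for MBD3L2, a gene of a methyl-CpG-binding-like family (chr19:7049804-7050145, 6.75 and 4.62), for the beta-defensin gene DEFB107B (chr8:7496166-7496632, 5.16 and 4.62) and for the olfactory receptor gene OR2T5 (chr1:248488466-248488804, 4.76 and 4.62).

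WTIP encodes a LIM-domain adaptor that binds the WT1 protein, and its mark lay in an intron (chr19:34482847-34484223, 1377 bp) with a fold enrichment of 5.56 and 5.46 in WT. It was the only mark of both WT lists in that gene, and the gene was cleared in 231K. LRAT, the enzyme that esterifies retinol, lost a mark 157 bp from its main start site (chr4:154743245-154743843, 5.16 and 5.04) but kept 16 marks in all 4 lists over its annotated span. GPRC5C, a retinoic acid-inducible orphan receptor, lost an intronic mark (chr17:74432777-74433301, 4.37 and 5.04) and kept 2 others. For these genes the value of the 2 WT replicates differed by less than 1 unit of fold enrichment.

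The other lost TSS marks of highest rank had similar values. NTF3, the neurotrophin-3 gene, had 3.97 and 5.46 in WT (chr12:5432173-5432839, exon and intron). GAD1, the glutamate decarboxylase of GABA synthesis, had 4.05 and 4.24 (chr2:170816147-170816548, exon and intron). ZIC4, a zinc finger regulator of cerebellar development, had 4.76 and 4.24 (chr3:147386541-147388645, exon) and lost 5 of the 6 marks that both WT lists held over the gene. PPARG, the nuclear receptor of fat cell differentiation, had 3.97 and 6.30 (chr3:12286977-12287430), the only mark of both WT lists in the gene, 1292 kb from the nearest mark in all 4 lists. MARCHF1, a membrane ubiquitin ligase, had 3.97 and 5.04 at an internal start site (chr4:163852240-163853388) and lost 20 of 123 marks along its body, where it gained 15 of 113. A gained mark of MARCHF1 lay close by (chr4:163854578-163855402, 3.28 and 2.88 in 231K). These 5 lost marks rested on 9 to 14 fragments at the summit.

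The highest-ranking gained TSS mark lay on the first exon of EPHA5, an ephrin receptor of axon guidance (chr4:65669852-65670318), with a fold enrichment of 5.33 and 7.50 in 231K. It was 1 of 9 gained marks over the gene, which also lost 6 and kept 35 in all 4 lists. TTC9 gained a mark 724 bp upstream of its start site (chr14:70640801-70641192, 4.51 and 5.02), and had no mark of WT. SPAG11A, an epididymal defensin-like gene with a near-identical copy, gained an intronic mark (chr8:7849151-7849450, 4.92 and 5.42), and KRT83, a hair keratin gene, gained one directly upstream (chr12:52321404-52323136, 3.97 and 5.42). For GJD2, the gene of a neuronal gap junction protein, the values were 3.62 and 5.84 (chr15:34753670-34754222). FBXO15, ATP13A4, CRYBG2, ADARB2, OR10H5 and SMLR1 followed with values from 3.69 to 5.00, and OR10H5 also lost a mark at another start site (chr19:15788621-15789602, 3.97 and 3.36 in WT). In each of the 12 gained marks replicate 2 had the higher fold enrichment, whereas 6 of the 12 lost marks were higher in replicate 1.

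**Figure D5:**
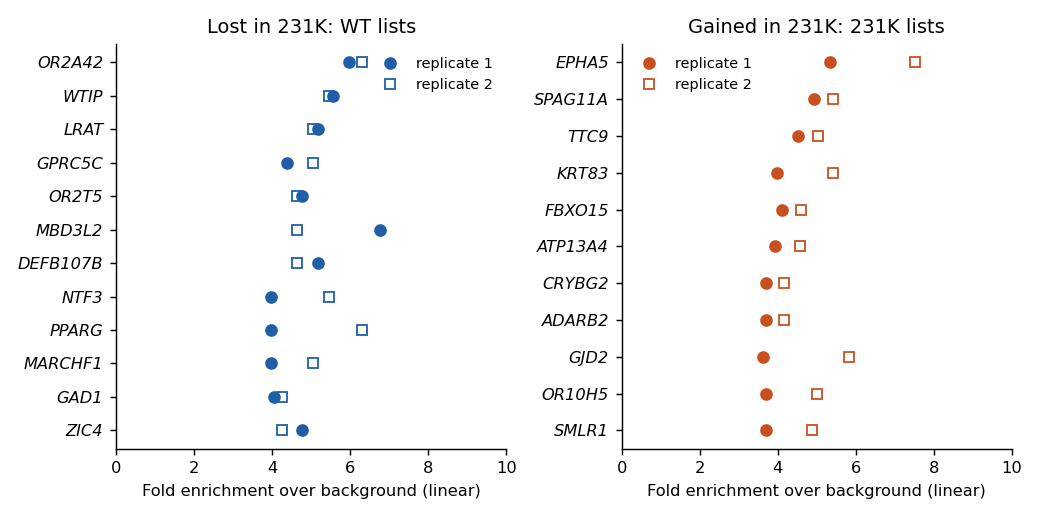
Fold enrichment over the local background (linear axis from 0) of the 12 highest-ranking lost TSS marks in the WT lists and of 11 of the 12 highest-ranking gained TSS marks in the 231K lists, with replicate 1 as filled circles and replicate 2 as open squares. All values lie between 3.62 and 7.50, and the other genotype had no peak at any of them.

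Some of these marks were present in the other Tau-KO line, 232P, whose lists had a relative depth of 68.1% and 56.9%. The peak names inside both 232P lists begin with 231P, which the study uses for a different Tau-depleted line, so the values given for 232P may belong to that line. WTIP had a fold enrichment of 6.96 in 232P replicate 1 and no peak in replicate 2. LRAT had 5.47 and GPRC5C 4.76 in replicate 1 alone. NTF3 had 3.98 and 3.53, a peak in both 232P lists. No 232P list held a peak at OR2A42, OR2T5, MBD3L2, DEFB107B, MARCHF1, GAD1 or ZIC4, and PPARG had 3.21 in replicate 2 alone. Of the gained marks, OR10H5 had a peak in both 232P lists (3.98 and 3.97). EPHA5 had 3.98 in replicate 1 alone, while GJD2 had 3.97 and KRT83 3.53 in replicate 2 alone. SPAG11A, TTC9, FBXO15, ATP13A4, CRYBG2, ADARB2 and SMLR1 had none. Both lines were set against the same WT samples.

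Wherever they lay, the strongest lost marks were mostly outside protein-coding genes. The mark that ranked first was intergenic (chr16:32847539-32847913, 171 kb from TP53TG3, 5.96 and 6.73 in WT), followed by one on chromosome 22 far from any protein-coding gene (chr22:12308592-12308989, 7.31 and 5.71) and by OR2A42. A mark 14.4 kb from SOX8, at the start site of a long non-coding RNA (chr16:1001342-1001963), had 5.16 and 5.88 in WT, and 8.45 and 4.86 in 232P. A mark near FAM90A12P had 5.16 and 6.30. The strongest gained marks lay 1458 kb from TPTE (chr21:9063254-9063728, 5.74 and 6.10 in 231K), at EPHA5, 461 kb from H3-7 (chr1:143432861-143433450, 6.15 and 5.38) and at the start of LINC00507 (chr12:127934429-127935890, 4.69 and 5.84). Whether the reads of these lost and gained marks have a single place in the genome was not tested.

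Among the developmental regulators that PRC2 is known for, the start-site shares rest on few genes per family. The families were not tested against each other or against all genes. Over gene bodies 3 of 111 HOX marks (2.70%) and 11 of 362 marks of other homeobox genes (3.04%) were lost, beside 7.69% of the marks over protein-coding genes, 2.87% of the marks at their start sites and 9.68% of all marks. Of 30 HOX genes that both WT lists marked at the start site, 2 had a lost mark, HOXD11 and HOXD12, and none gained one. Neither was cleared, since a peak of 231K remained in the window. HOXD12 had 5.56 and 3.71 at its lost mark in WT, and the first of the lost marks of HOXD11 had 3.97 and 3.78. Of 74 other homeobox genes 6 lost a mark, BARHL1, BARX1, NKX2-8, PAX6 and PAX7 among them, and none gained one. NKX2-8, with 3.57 and 3.36 in WT, was the homeobox gene that was cleared. PAX6, an eye and brain regulator, lost a mark of 3.97 and 3.86 and kept stronger peaks at its start sites, with 7.54 and 11.3 in WT and 8.20 and 9.59 in 231K. No FOX gene lost a mark at the start site among 15, and over FOX gene bodies 4 of 133 marks were lost and 6 of 128 gained, where 6.24% of the marks over all protein-coding genes were gained. Among SOX and T-box genes TBX21 lost and SOX5 gained a mark, out of 11 and 10, where 3.62% of all genes gained one. None of 19 basic helix-loop-helix lineage genes lost a mark by overlap, yet MYOD1, the muscle regulator, had a peak of 3.57 and 4.20 in WT at its start site and none in 231K. The shares of genes with a lost start-site mark were 6.67% (HOX), 8.11% (other homeobox) and 9.09% (SOX and T-box). They were 0% for FOX and for basic helix-loop-helix genes, beside 5.51% for all genes.

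At start sites the shares of the neuronal and signalling lists rest on 1 or 2 genes each. They were not tested against those of all genes. Over all genes with a mark at the start site, 5.51% lost and 3.62% gained one, and 2.13% were cleared in 231K. Of 28 potassium channel genes KCNF1 and KCNN3 lost a mark (7.14%), and KCNF1, with 3.04 and 4.11 in WT, was cleared. Of 19 genes of glutamate, GABA and glycine receptors GABBR2 and GRIN2B lost a mark (10.5%), while GLRA3 and GRIN2A gained one out of 21 (9.52%). Among 14 axon guidance genes ROBO2, a receptor for SLIT ligands, lost its mark (7.14%, with 2.78 and 3.41 in WT), and EPHA5 gained one out of 13 (7.69%). ROBO2 and NRP1, a semaphorin receptor (2.78 and 3.94 in WT), were the cleared genes among 16 (12.5%). No lost or gained TSS mark fell on 18 genes of the WNT pathway, 14 collagen genes or 16 genes of matrix metalloproteinases and their inhibitors that had a mark of both WT lists. The 12 genes of the TGF-beta and BMP pathway had none either, although NODAL (2.78 and 2.94 in WT) had no 231K peak at its start site. None of 10 ZNF genes or 3 protocadherin genes lost a start-site mark by overlap, yet ZNF735 had a peak of 4.57 and 4.31 in WT at its start site and none in 231K (1 of 9 ZNF genes, 11.1%). Over the bodies 10 of 85 ZNF marks (11.8%) were lost and 13 of 88 (14.8%) gained, beside 7.69% and 6.24% over all protein-coding genes, and 1 of 9 protocadherin marks was lost and none gained.

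Among 57 chemokine and cytokine genes CXCL12, the ligand of CXCR4, and IL1RN, the interleukin-1 receptor antagonist, lost a mark (3.51%, beside 5.51% of all genes). CCL13 and IL4R gained one out of 55 (3.64%, beside 3.62% of all genes). The CXCL12 mark (chr10:44385736-44386039) had 5.56 in WT replicate 1 and 2.94 in replicate 2, and the start site was cleared. CCL2, a monocyte attractant, had 3.57 and 2.48 in WT at its start site and no 231K peak there. The WT replicate 2 peak was weak, with a −log10 q of 1.29. Along the gene the 231K lists held 2 and 1 peaks, and 1 mark was in all 4 lists. Of 28 senescence and secretory phenotype genes with a mark, CXCL12 was the only one with a lost mark (3.57%), and CCL13 the only one with a gained mark among 26 (3.85%). By the stricter count CCL2 and CXCL12, both members of that list too, were cleared out of 29 (6.90%, beside 2.13% of all genes). In the insulin-like growth factor family IGFBP1 gained a mark at its start site (chr7:45887378-45888365, 5.31 and 2.89 in 231K), out of 4 genes, and none lost one. IGFBP3, whose product is secreted by senescent cells, was marked in all 4 lists, with 5.68 and 4.58 in WT and 3.29 and 4.64 in 231K, so the genotypes overlapped. Of 28 cytochrome P450 genes CYP2C8 gained a mark (3.57%, with 3.97 and 3.33 in 231K) and none lost one.

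Of the gene families in clusters, the olfactory receptors had the most genes with a lost mark. Of 324 olfactory receptor genes that both WT lists marked at the start site, 16 (4.94%) lost a mark, and 8 of 312 (2.56%) gained one. In both directions these shares were below those of all genes (5.51% and 3.62%). Of 113 keratin and keratin-associated genes 4 lost a mark (KRTAP10-12, KRTAP19-4, KRTAP20-3 and KRTAP4-4) and KRT83 gained one. DEFB107B was the defensin gene among 24 with a lost mark. Reads of such families can be split between close copies.

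In the list of 665 autosomal genes that the study names as upregulated in Tau-KO cells, 15 of 89 with a TSS mark of both WT lists lost a mark (16.9%, beside 5.51% of all genes) and 5 of 85 gained one (5.88%, beside 3.62%). By the stricter count 10 of 88 were cleared in 231K (11.4%, beside 2.13%), and 2 of 77 had no WT peak (2.60%, beside 0.928%). The list was chosen by the study on RNA of these lines. GAD1, GPRC5C, WTIP, EDN3 and SPON1 were among those with a lost mark, RELN and GFRA1 were among those with a gained mark, and THBS2 had both.

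The start sites of the cell type genes had the pattern of the labelled line. No peak of WT was found at 12 of the 13 neuroblastoma markers, among them HAND2, GATA3, ISL1, TH and DBH. Of 16 regulators of other lineages 13 were marked in both WT lists, and PAX6 had a lost mark. Of 10 mesenchymal-state genes PRRX1, RUNX1 and YAP1 were marked in all 4 lists, and RUNX1 lost a further mark. MAPT and the 12 autosomal PRC2 subunit genes, EZH2, SUZ12 and EED included, had no peak over the gene in any list. The absence of a peak at MAPT in WT means that the mark cannot check the knock-out.

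Long genes collected the most changes in both directions. RBFOX1, a splicing regulator, lost 31 of 295 marks over its body and gained 25 of 290. CSMD3 lost 26 of 188, DLG2, a synaptic scaffold, 25 of 166, NKAIN2 24 of 182, CNTN5, a neural adhesion protein, 23 of 231, and MARCHF1 20 of 123. CNTN5 gained 20 of 204, CTNNA3 18 of 146, DLG2 16 of 158, RUNX1 16 of 183 and CDH12 15 of 168. The lost shares of the 6 genes with the most lost marks ran from 9.96% to 16.3%, beside 7.69% of the marks over protein-coding genes and 9.68% of all marks. The gained shares of the 6 genes with the most gained marks ran from 8.62% (RBFOX1) to 12.3% (CTNNA3), beside 6.24% and 7.63%. Over all genes 3500 had a mark of both WT lists in the body, 807 of them lost at least 1, and 369 genes had both a lost and a gained mark.

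The marks in all 4 lists allowed a test of strength that the rule did not use. Over 55806 such marks, limma on the log2 fold enrichment found 4 marks with a higher value in 231K at a Benjamini-Hochberg adjusted p under 0.05 (0.00717%) and none with a lower value (0%). With a replicate block limma called 12 higher and 3 lower marks. At an unadjusted p under 0.05 the fit without a block gave 1445 higher and 732 lower marks. The median change was 0.04 on the log2 scale. With 159.8 prior degrees of freedom, the SE and p-values of limma rest mainly on a variance pooled over the tested marks. They do not measure the spread between the replicates of a single mark. KCNN2, a calcium-activated potassium channel gene, had 3.35 and 5.19 in WT and 10.7 and 10.0 in 231K (chr5:114050859-114055456), a log2 change of 1.31 ± 0.25 (SE) with an adjusted p of 0.0206 by limma. HOXA5 had 4.56 and 3.85 in WT and 7.74 and 12.5 in 231K (chr7:27143468-27144804), a log2 change of 1.23 ± 0.26 with an adjusted p of 0.0457 by limma. In both genes the 231K values lay above the WT values. USP17L11, 1 of a tandem array of near-identical deubiquitinase genes, had 1.92 and 6.73 in WT and 13.5 and 8.25 in 231K (adjusted p of 0.00419 by limma), and the fourth mark (chr14:18627015-18628373) was not at a start site of a protein-coding gene. None of the 4 passed when each list was centred on its median (lowest adjusted p of 0.601 by limma) or when WT replicate 1 was left out (lowest adjusted p of 0.640). DEFB104B, LMO4, OR8B8, FCGR2C, SKOR2, NXN and CREG2 followed among higher TSS marks, with adjusted p from 0.501 to 1.00 by limma, and did not pass. Among lower TSS marks ADAMTSL5 came first, with 7.54 and 7.57 in WT and 3.34 and 3.81 in 231K, a log2 change of -1.08 ± 0.27 (SE) and an adjusted p of 0.404 by limma. GALNT9, a mucin-type glycosyltransferase gene, had 5.53 and 7.99 in WT and 2.87 and 3.75 in 231K (adjusted p of 0.709 by limma). GCGR, VSX1, CRISP1, MS4A3, SFRP5, TRABD2A, FAM20A and DLX3 followed with an adjusted p of 1.00 by limma, and none of the lower marks passed in the fit without a block.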

How the data were processed

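H3K27me3 ChIP-seq of SH-SY5Y cells was used (2 WT, 2 Tau-KO 231K, with 2 Tau-KO 232P samples for reference). The authors aligned trimmed reads with BWA (hg38) and ran MACS version 2 sample by sample. The methods name the broad setting, whereas the deposited lists have narrow-peak columns and more peaks than the study's text gives per sample, so they may not be the lists behind its counts. The lists give the fold enrichment at the summit (ratio over the local background) and the −log10 p and −log10 q, per the file headers of that format, and the deposited score column, 10 times −log10 q, was not analysed further. The control library and thresholds are not given in the sources used here. Input samples had no list used here.

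Autosomal peaks were joined into marks wherever they shared 1 bp or more. Fragments at a summit were recovered as the whole number that, with the fold enrichment, gave the listed −log10 p to within 0.001 (100.0% of peaks). Genes were from GENCODE release 44 (hg38), with a TSS window of 1 kb on each side. limma 3.58.1 (R 4.3.3, trend, threshold 0.05) was fitted to log2 fold enrichment of the strongest peak of each shared mark. Counts per mark were not used here. No further pseudocount was added, as the listed fold enrichment has 1 added to pileup and background. The merging and the fit were tested on simulated data. Named were the 12 lost and 12 gained TSS marks and the 5 of any position that ranked highest by the lower within-list percentile of −log10 q, members of fixed gene lists, the 6 genes and 3 windows with most changes, and the 10 shared TSS marks with the smallest adjusted p in each direction. Further start sites without a peak of the other genotype were named after their values were seen. Members and lists were chosen with earlier results of these data known. Alternatives changed threshold, list size, depth, chromosomes, merging, coverage, window and replicates. Some named genes and a summit sequence are not reported here.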

Additional observations from a re-analysis of the deposited data

How the results depend on the processing

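Of the lost and gained marks 17.5% and 11.7% were still called with peaks merged across 1 kb, 53.4% and 52.9% when 50% of a mark had to be covered, and 5 lost and 1 gained under each of 7 alternatives. The 12 named lost and 12 named gained TSS marks, picked for high confidence, kept 123 calls under these alternatives and lost 45, where the addition of the other chromosomes cannot remove a call. A −log10 q of at least 5 left 884 lost and 1373 gained marks (0.644 lost per gained mark). It left 72 genes with a lost and 87 with a gained TSS mark, and a peak number ratio of 1.08. Merging across 1 kb left 2136 lost and 1212 gained marks, on 61 and 39 genes at the TSS. All chromosomes gave 244 genes with a lost TSS mark, and a window of 2.5 kb gave 310 and 197 genes. Other changes of threshold, list size, depth and coverage kept these counts within 1.5 times. Leaving out a list removes a condition of presence or absence, so the counts rise by construction. Lost marks then ran from 13268 (without 231K replicate 1) to 45242 (without WT replicate 2), and gained marks from 11881 (without WT replicate 1) to 35089 (without 231K replicate 2). Genes ran from 291 to 789 (lost) and from 254 to 474 (gained), and lost marks per gained mark from 0.404 to 3.03, reversed without either 231K list (0.404 and 0.605). The peak number ratio ran from 0.827 to 1.10, and was above 1 without WT replicate 1 (1.10) and without 231K replicate 2 (1.09).

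Whether the replicate numbers pair the samples is not settled. The deviations of WT and 231K over the shared marks correlated at 0.0345. Peak number, peak width and fragment length, which are values of whole lists, went with the replicate number. With a replicate block limma called 15 shared marks (12 higher, 3 lower) instead of 4, all 4 included. The within-number permutation of the peak number ratio (0.958) gave an exact p = 0.500. That is the smallest two-sided value that 2 replicate numbers allow, so it could not have passed a threshold. Median centring and the length-weighted mean left 0 calls each by limma, with 2508 and 1558 marks at an unadjusted p under 0.05. The prior degrees of freedom fell from 159.8 to 15.7 under centring. Leaving out a list gave from 0 (without WT replicate 1) to 10 calls (without 231K replicate 2, 2 higher and 8 lower), where the lone sample is assumed to vary like the other genotype. Depth was estimated from the lists, and the median lost or gained mark rested on 7 fragments at the summit in each list that held it, with a lowest number of 5.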

Other observations

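Of the 3500 genes with a mark of both WT lists over the body, start sites included, 96 lost each such mark. Of these 96, 80 had no mark of both 231K lists. Most of the 96 rested on a single mark, where 7.69% of all marks over protein-coding genes were lost. Only 10 of the 96 had at least 2. They were DHH, the desert hedgehog ligand, FAM78B, GNG7, IDUA, a lysosomal enzyme, MBD3L2, NFIC, OR5AS1, RND1, SUMF1 and SUN3. In the other direction 64 of the 3408 genes with a mark of both 231K lists had gained each such mark, 5 of them with at least 2. Over all protein-coding genes 6.24% of these marks were gained. MTLN held 3 gained marks, and GFRA1, a receptor for glial-derived neurotrophic factor, MYPN, OR8B3 and TNS3 held 2 each. RND1 lost both of its WT marks and gained another.

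Start sites without any peak of the other genotype included PRDM6 (5.53 and 6.73 in WT) and HLA-E, a non-classical class I antigen gene (5.51 and 6.38 in WT), both of which kept 2 marks in all 4 lists along the gene. In the opposite direction ADRB1, the beta-1 adrenergic receptor gene, had 4.02 and 4.58 in 231K, CDH4 had 4.10 and 3.75, and NRXN2, a presynaptic adhesion gene, had 4.51 and 3.33. RELN, the gene of the migration cue reelin, had 2.80 and 3.61 in 231K. These genes were chosen after their values were seen.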
